A study of Mus musculus with 12 samples.

Results

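Scgb2b27, Scgb1b27, Scgb2b26, 2310057J18Rik, Ankrd22, Scrg1 and Mospd4 were 7 of the 23301 gene names shared by 12 RNA-seq files of mouse mammary tissue. They were chosen from the measured values, because the Normal samples held close to 0 FPKM of each and the Tumor samples did not, so their rise from Normal to Tumor is a description and was not tested. FPKM counts the sequenced fragments of a gene, divided by the length of the gene and by the size of the library. That choice does not answer whether 6 further tumors, which played no part in it, expressed the same genes, and whether an inhibitor of the acetyltransferase p300 changed them.

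All mice were females of 12 weeks. Normal was mammary gland of untreated FVB wild type mice, and each of its 3 replicates mixed the abdominal and inguinal glands of 3 animals. Tumor was tumor tissue of untreated MMTV-PyVT mice, taken from the thoracic gland, with 1 animal per replicate. MMTV-PyVT mice carry the polyomavirus middle T oncogene under a mammary tumor virus promoter that is active in mammary epithelium. DMSO and C646 were tumors of MMTV-PyVT mice injected with the solvent or with C646, an inhibitor of p300, with 3 replicates each, and the labels give 1 mg/kg for both injections. For these groups the study took the biggest tumors of 3 mice each, so the gland position is not given and large tumors were selected. All tumor groups, the controls included, carry the transgene. The tumor mice were on the same FVB background. The transgene, gland position, pooling and tissue cannot be told apart between Normal and Tumor. Untreated and injected tumors differ in injection, in how tumors were picked and in the rows of their files, which cannot be told apart either.

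Secretoglobins are small secreted proteins that pair into dimers. In the mouse, the Scgb1b genes encode the alpha subunit and the Scgb2b genes the beta or gamma subunit of androgen-binding protein, which is best known from saliva and tears, and Scgb1b27, Scgb2b26 and Scgb2b27 are the members known from saliva. Scrg1 encodes a small secreted protein first linked to scrapie and later to cartilage formation. Ankrd22 encodes an ankyrin repeat protein, and Mospd4 belongs by name to the motile sperm domain family but is annotated as a processed pseudogene.

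The 3 secretoglobins lay in 1 cluster on chromosome 7 of GRCm38, the build of the files. Within 1 Mb of them 26 Scgb genes were annotated, these 3 included, and 15 of the 26 as protein coding. Scgb2b26 (33943002 to 33945040, minus strand) and Scgb2b27 (34011921 to 34013942, minus strand) lay 66880 bases apart, and genes between them were not counted. Scgb1b27 (34021483 to 34022881, plus strand) began 7540 bases beyond Scgb2b27, with no annotated gene between Scgb2b27 and Scgb1b27. The first transcript of each of the 3 secretoglobins had 3 exons and between 493 and 579 bases. The starts of these 3 genes are shown because Scgb2b27 and Scgb1b27 varied together between tumors, as described further on. Each run is 250 bases before and 50 after the RefSeq start on GRCm38.p6, read 5′ to 3′ on the strand of the gene, at chr7:34013893-34014192 for Scgb2b27, chr7:34021231-34021530 for Scgb1b27 and chr7:33944936-33945235 for Scgb2b26. Capitals mark the letters TATAAA on either strand, which read TTTATA where they lie on the other strand.
Scgb2b27: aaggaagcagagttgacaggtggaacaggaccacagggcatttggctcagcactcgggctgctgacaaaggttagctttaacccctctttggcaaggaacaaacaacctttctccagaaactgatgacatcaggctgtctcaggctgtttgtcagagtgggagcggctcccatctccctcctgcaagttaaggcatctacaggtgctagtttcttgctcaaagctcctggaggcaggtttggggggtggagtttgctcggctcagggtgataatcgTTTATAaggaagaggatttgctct
Scgb1b27: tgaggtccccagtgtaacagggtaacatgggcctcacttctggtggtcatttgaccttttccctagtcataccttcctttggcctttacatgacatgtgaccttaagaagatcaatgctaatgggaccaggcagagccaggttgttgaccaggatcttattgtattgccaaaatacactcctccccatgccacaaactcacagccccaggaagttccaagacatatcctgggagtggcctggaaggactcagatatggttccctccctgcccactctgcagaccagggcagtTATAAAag
Scgb2b26: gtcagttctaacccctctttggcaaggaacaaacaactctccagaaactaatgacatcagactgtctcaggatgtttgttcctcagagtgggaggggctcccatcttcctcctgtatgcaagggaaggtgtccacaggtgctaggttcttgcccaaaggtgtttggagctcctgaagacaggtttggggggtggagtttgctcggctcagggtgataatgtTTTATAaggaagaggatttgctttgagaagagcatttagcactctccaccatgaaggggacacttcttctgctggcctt

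Each of the 3 starts held TATAAA once, at bases 277 to 282 of the window of Scgb2b27, 293 to 298 of Scgb1b27 and 222 to 227 of Scgb2b26. Counted from the annotated start, the letters lay after it in Scgb2b27 (26 to 31) and Scgb1b27 (42 to 47). In Scgb2b26 they lay before it (-29 to -24). The windows of 2310057J18Rik and Ankrd22, which were also read, did not hold TATAAA. The letters were found in 13.6% of the 32851 RefSeq promoters of the same length. The windows of Scgb2b26 and Scgb2b27 matched at 207 of 248 aligned positions (83.5%) with a longest identical run of 41 bases. Promoters of 5 of the 7 genes were read, and the letters TTCNNNGAA and CACGTG, each searched on both strands, were in none of these 5 and in 8.3% and 7.15% of all promoters. Such matches describe the letters only.

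Copies of a gene can share reads, so every stretch of 50 bases of each first transcript was looked up in the transcripts of all other genes. Scgb1b27, Scrg1 and Mospd4 shared none. Scgb2b27 shared 6.48% of its stretches, Scgb2b26 1.7% and 2310057J18Rik 1.09%. The closest match of both Scgb2b genes was Scgb2b2, which was listed at 0 in 9 of 12 samples and reached at most 0.592 FPKM. Ankrd22 (chromosome 19, 34121469 to 34166053, minus strand) overlaps Lipm, a lipase gene on the plus strand, and 41.8% of its stretches were shared with it. The libraries kept no strand, so reads of that overlap cannot be told apart, and Lipm itself was between 0 and 1.93 FPKM in the 12 samples.

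Depth was not in the files. From long genes with a single transcript, 1 fragment was worth between 0.095 and 0.2 FPKM times kilobase, which corresponds to about 5000000 to 10000000 fragments per sample. For a transcript as short as Scgb2b27 the limit that a count of 0 allows was then between 0.56 and 1.2 FPKM, for counting error only. An exact 0 can also be a failed estimate, since Gapdh, a gene that every cell uses, was listed at 0 in 3 of the 12 samples and reached at most 19.9 FPKM. Zeros are therefore written as listed, and no mean FPKM or ratio is given for a group that holds one. A difference on the scale log2(FPKM + 2^-5) that includes a listed 0 depends on the added 2^-5. Luminal epithelial markers were present in Normal, with Epcam at 147, 68.2 and 98.7 FPKM, and 9 of 10 such markers were higher in Tumor (28.8% of all 13031 names tested rose and 31.7% fell). The summed FPKM of 8 adipocyte markers was between 25480 and 32170 in Normal and between 119 and 2436 in Tumor, and that of 8 lymphocyte markers between 398 and 513 in Normal and between 1.09 and 2.76 in Tumor. In such bulk tissue, fewer cells of a type and less RNA per cell cannot be told apart, and the part of tissue makeup in the values of the 7 genes was not tested.

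In the Normal samples, 17 of the 21 values of the 7 genes were listed at 0. Scgb2b27 read 0.938, 0 and 0.506 FPKM in Normal replicates 1, 2 and 3, which is at most a few fragments at this depth. Scrg1 read 0.37 FPKM in Normal replicate 2 and Mospd4 0.0503 FPKM in Normal replicate 3, with the other replicates of both at 0. All other Normal values were 0. These values, and those of the 3 Tumor replicates, are the ones that chose the genes.

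The injected tumors expressed them too. Of the 42 values of 7 genes in 6 injected tumors, 39 reached 1 FPKM and 2 were listed at 0, both in DMSO replicate 3. For 5 of the 7 genes (Scgb2b27, 2310057J18Rik, Ankrd22, Scrg1 and Mospd4) all 6 injected tumors were above the highest Normal sample, against 21.2% of all 23301 names, and the same 5 reached 1 FPKM in all 6. Without DMSO replicate 3, 7 of 7 genes were above the highest Normal sample, against 23.0% of all names, and 6 reached 1 FPKM, the exception being Scgb2b26. This is a description without a test, and it uses the same Normal samples as the choice of the genes. It also sets files with different rows side by side. The share of all names that reached 1 FPKM in all 6 injected tumors, or in those left without DMSO replicate 3, was not computed. For scale, 12083 names reached 1 FPKM in 3 or more of the 6.

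**Figure D1:**
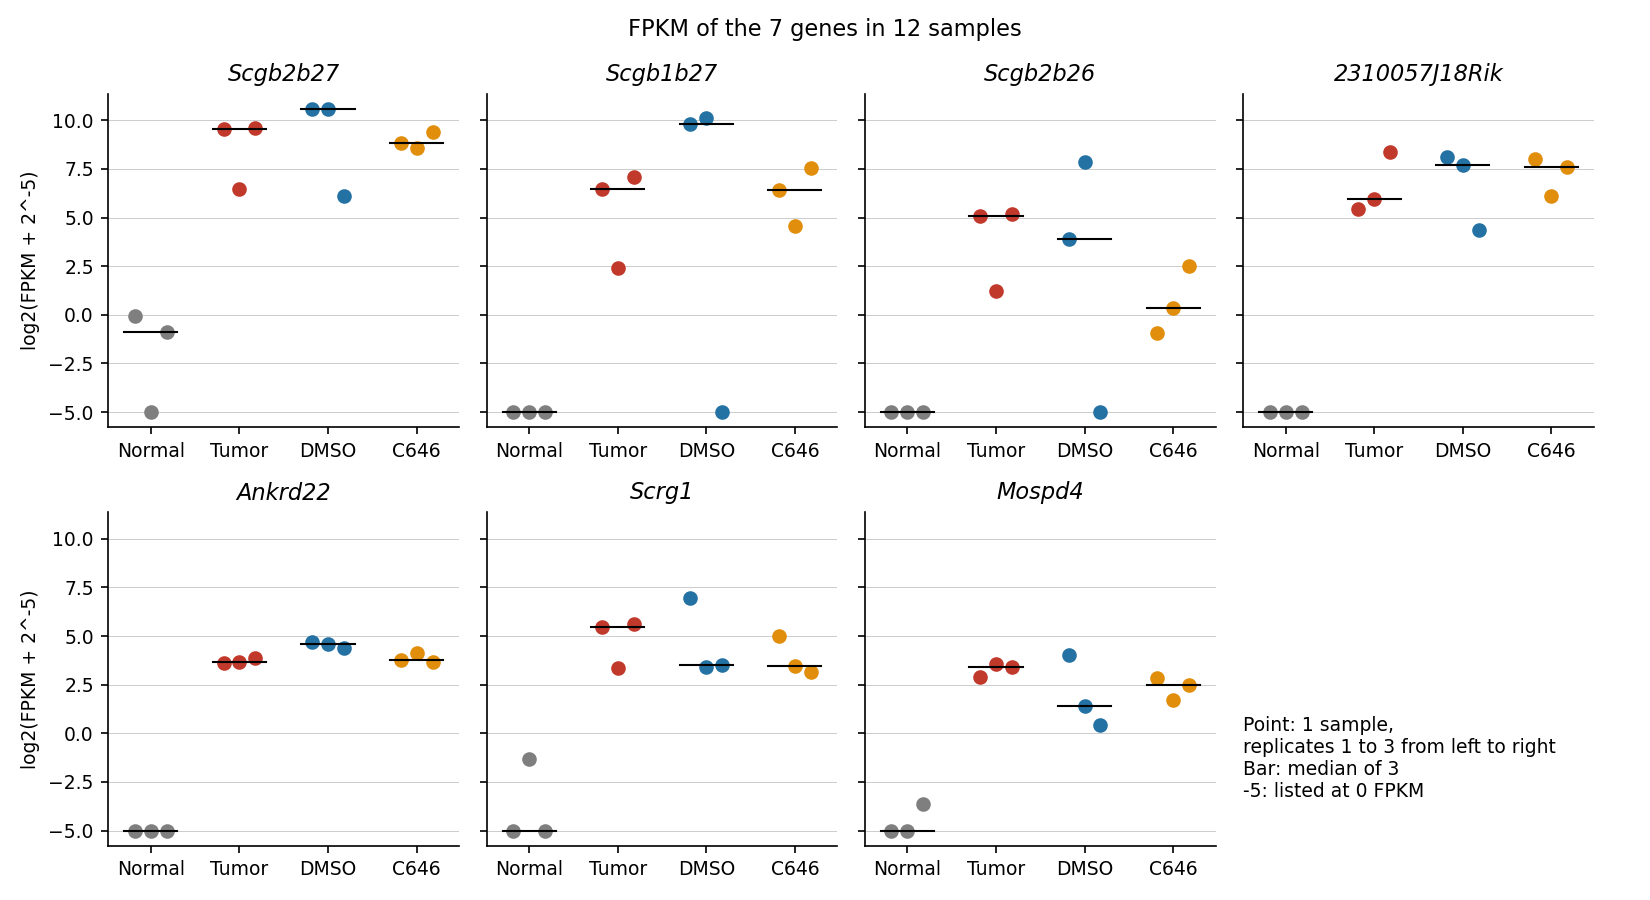
FPKM of the 7 genes in 12 samples on the scale log2(FPKM + 2^-5), with 1 point per sample, a bar at the median of 3 and replicates 1 to 3 from left to right. Normal points listed at 0 FPKM fall at -5. Scgb2b27 in Normal replicates 1 and 3, Scrg1 in Normal replicate 2 and Mospd4 in Normal replicate 3 lie above that. The 9 tumors lie above the highest Normal sample of each gene except DMSO replicate 3 for Scgb1b27 and Scgb2b26.

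Scgb2b27, a Scgb2b subunit gene, had the highest level of the 3 secretoglobins in every tumor. It read 749, 87.5 and 770 FPKM in Tumor replicates 1 to 3, with a mean of 536 ± 388 (SD, n = 3). The DMSO tumors read 1511, 1550 and 69.8 FPKM, with a mean of 1044 ± 844 (SD, n = 3). The C646 tumors read 458, 379 and 685 FPKM, with a mean of 507 ± 159 (SD, n = 3). Tumor replicate 2 and DMSO replicate 3 were low, and the highest of the 9 tumors was 22.2 times the lowest. The 3 C646 tumors lay within the range of the DMSO tumors, so the order of the tumor groups does not go beyond their spread, while all 9 tumors were above Normal.

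Scgb1b27, the alpha subunit gene next to it, followed the same tumors. It read 88.0, 5.25 and 137 FPKM in Tumor replicates 1 to 3, a mean of 76.7 ± 66.5 (SD, n = 3). The DMSO tumors read 902, 1128 and 0 FPKM, and the C646 tumors 86.8, 23.6 and 185 FPKM, the latter a mean of 98.3 ± 81.1 (SD, n = 3). DMSO replicates 1 and 2 were the highest of all tumors, and DMSO replicate 3 was listed at 0 like the Normal samples. The 3 tumor groups overlap.

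Scgb2b26, another Scgb2b subunit gene, had the lowest levels of the 3 secretoglobins in most tumors. Its name stood on 2 rows in the Normal and Tumor files and on 1 row in the DMSO and C646 files, so its sums are not comparable between the experiments. The summed rows read 34.3, 2.31 and 35.8 FPKM in Tumor replicates 1 to 3, of which 31.1, 2.08 and 31.1 FPKM stood on the higher row. The DMSO tumors read 14.6, 228 and 0 FPKM and the C646 tumors 0.489, 1.24 and 5.60 FPKM. DMSO replicate 2 stood alone, and the C646 tumors lay between the lowest and the middle DMSO tumor.

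Most other secretoglobins found in all 12 files were nearly silent. Of 26 further names that begin with Scgb, 21 were in all 12 files, 15 of them were listed at 0 in all 12 and 19 stayed under 1 FPKM. Among these 21, Scgb1c1 and Scgb3a1 were the 2 that reached 1 FPKM. The values of names missing from some files are not given. Scgb1c1 read 0.315, 0 and 0.54 FPKM in Normal and 10.7, 3.18 and 3.51 FPKM in Tumor. Its injected tumors read 5.11, 20.0 and 5.34 FPKM with DMSO and 11.4, 6.93 and 3.77 FPKM with C646, so it was above Normal in 9 of 9 tumors and overlapped between DMSO and C646. Scgb3a1 read at most 1.12 FPKM, in Tumor replicate 1, beside 0.785 FPKM in Normal replicate 1.

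2310057J18Rik (chromosome 10, 28972288 to 28986303, minus strand), a gene known here by its clone name, was listed at 0 in all 3 Normal samples. It read 42.8, 62.4 and 337 FPKM in Tumor, a mean of 147 ± 164 (SD, n = 3). With DMSO it read 277, 211 and 20.7 FPKM (mean 170 ± 133, SD, n = 3) and the C646 tumors 258, 69.3 and 197 FPKM (mean 175 ± 96.2, SD, n = 3). The 3 means differ by much less than their SDs, and 5 of the 6 injected tumors lay within the range of the untreated ones. DMSO replicate 3, low for the secretoglobins, was the lowest tumor here too.

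Scrg1 (chromosome 8, 57455923 to 57477585, plus strand) read 43.4, 10.4 and 48.5 FPKM in Tumor, a mean of 34.1 ± 20.7 (SD, n = 3). With DMSO it read 123, 10.4 and 11.5 FPKM (mean 48.3 ± 64.8, SD, n = 3) and the C646 tumors 32.6, 10.8 and 8.89 FPKM (mean 17.4 ± 13.2, SD, n = 3). One DMSO tumor, replicate 1, was far above the others, and 5 of the 9 tumors lay between 8.89 and 11.5 FPKM. The 3 groups overlap.

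Mospd4, the pseudogene on chromosome 18, read 7.50, 11.9 and 10.5 FPKM in Tumor, a mean of 9.95 ± 2.24 (SD, n = 3). The DMSO tumors read 16.4, 2.65 and 1.29 FPKM (mean 6.78 ± 8.36, SD, n = 3) and the C646 tumors 7.16, 3.18 and 5.60 FPKM (mean 5.31 ± 2.0, SD, n = 3). All 3 C646 tumors were below the untreated Tumor samples, and the DMSO tumors lay on both sides of them. As these files differ in their rows, this order cannot be told apart from the processing. Mospd2, a gene of the same family by name, was between 5.95 and 8.40 FPKM in the Normal samples, where Mospd4 was at or near 0.

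Ankrd22 was the steadiest of the 7. It read 12.1, 12.8 and 14.7 FPKM in Tumor (mean 13.2 ± 1.38, SD, n = 3). The DMSO tumors read 25.4, 23.9 and 20.7 FPKM (mean 23.3 ± 2.38, SD, n = 3), and the C646 tumors 13.6, 17.5 and 12.8 FPKM (mean 14.6 ± 2.54, SD, n = 3). The DMSO tumors were above both other tumor groups without overlap, and Tumor and C646 overlapped. Tumor and the injected groups come from files with different rows, so that part of the comparison cannot be told apart from the processing. Gapdh was at or under 0.194 FPKM in the Normal and Tumor files and at or above 2.11 FPKM in the injected ones. The SD of Ankrd22 within tumor groups was 0.18 on the log2 scale, below the median of 0.28 over 12198 names. The SD of the other 6 genes was between 1.15 and 5.28 and larger than that of at least 95.3% of names, with the zeros of DMSO replicate 3 counted in.

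C646 against DMSO is the comparison that the choice of the genes did not use. Ankrd22 was the 1 gene of the 7 whose groups did not overlap, with each C646 tumor below each DMSO tumor, as for 4.52% of the 12083 names tested. Its difference was -0.68 on the scale log2(FPKM + 2^-5) (SE 0.16, 95% interval -1.07 to -0.29), with an unadjusted p of 0.00442 and an adjusted p of 0.99 from limma's fit across all names. The exact permutation test, two-sided on 3 against 3 samples, gave p = 0.1, the smallest it can give. The difference therefore did not pass the test across all names, and leaving out any 1 of the 6 tumors moved it between -0.82 and -0.59.

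None of the other 6 genes passed either. The difference of Scgb2b27 was -0.15 (95% interval -2.88 to 2.57) and that of Scgb1b27 1.19 (-7.92 to 10.3), the latter with DMSO replicate 3 listed at 0 and -3.80 without that tumor. Scgb2b26 differed by -1.60 (-8.67 to 5.47) and was 1.20 without DMSO replicate 2. The intervals of the secretoglobins include changes of more than 2 on the log2 scale in both directions, so these samples do not show whether C646 changed them. The difference was 0.51 for 2310057J18Rik (-1.87 to 2.90), -0.74 for Scrg1 (-3.10 to 1.61) and 0.39 for Mospd4 (-1.69 to 2.47). Each of these 3 changed sign without 1 of the DMSO tumors.

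Across the whole table limma called 0 names higher (0%) and 0 lower (0%) in C646, with 169 higher and 215 lower at an unadjusted p under 0.05. Of the 7 genes, 4 were below 0, with a median of -0.15, beside 53.1% of all names and a median of -0.01. Adjusted p for the 7 lay between 0.99 and 1.00.

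**Figure D2:**
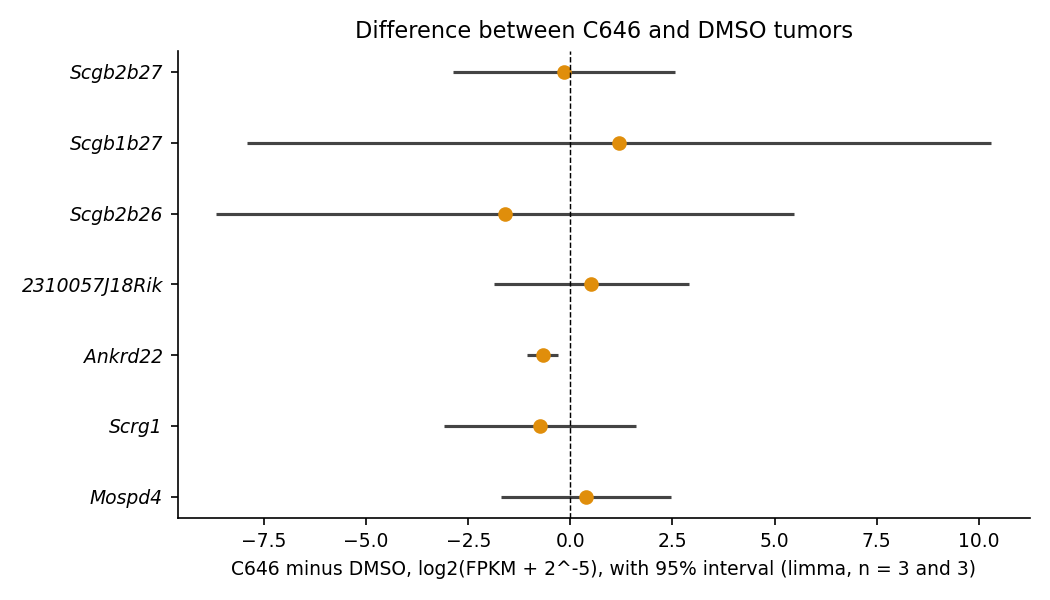
Difference between C646 and DMSO tumors of the 7 genes on the scale log2(FPKM + 2^-5), with 95% intervals from limma on 3 and 3 samples. The interval of Ankrd22, from -1.07 to -0.29, is the only 1 of the 7 that leaves out 0, and its adjusted p was 0.99.

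The genes were then compared across the 9 tumors, in 21 pairs of genes and 7 pairs of a gene with the mean of 10 luminal epithelial markers. Pearson's r was positive in 20 of the 21 gene pairs, and 1 of the 28 pairs passed adjustment. The share of positive r over pairs of all names was not computed, and the adjustment covers these 28 pairs only. Scgb2b27 and Scgb1b27 had r = 0.93 (exact permutation p = 4.69e-05, adjusted p = 0.00131) and Spearman's rho = 0.95 (exact permutation p = 0.000353, adjusted p = 0.00988). Without the 2 tumors farthest from the median, Tumor replicate 2 and DMSO replicate 3, r was 0.96. Over the 6 injected tumors alone r was 0.98 (exact permutation p = 0.00139, the smallest that 6 samples can give without ties, adjusted p = 0.0389), and it was 0.95 over deviations from the group means. Over the same deviations Sesn3, Ctnnd1 and Npr2 each had r = 0.99 with Scgb2b27, so a high r was not particular to this pair. No stretch of 50 bases of Scgb1b27 lies in another gene, so the 2 values do not share reads of that length.

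Scgb2b26 had r = 0.80 with Scgb2b27 (exact permutation p = 0.00775, adjusted p = 0.0542) and r = 0.84 with Scgb1b27 (exact permutation p = 0.00458, adjusted p = 0.0524), and neither passed adjustment. 2310057J18Rik had r = 0.82 with Scgb1b27 (exact permutation p = 0.00561, adjusted p = 0.0524), which was 0.55 without Tumor replicate 2 and DMSO replicate 3. The pair of 2310057J18Rik and Scgb2b27 went from r = 0.73 to 0.37 without these 2 tumors and so rests on them. With the epithelial mean, r was between -0.73 and -0.08 for the 7 genes and no pair passed adjustment.

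**Figure D3:**
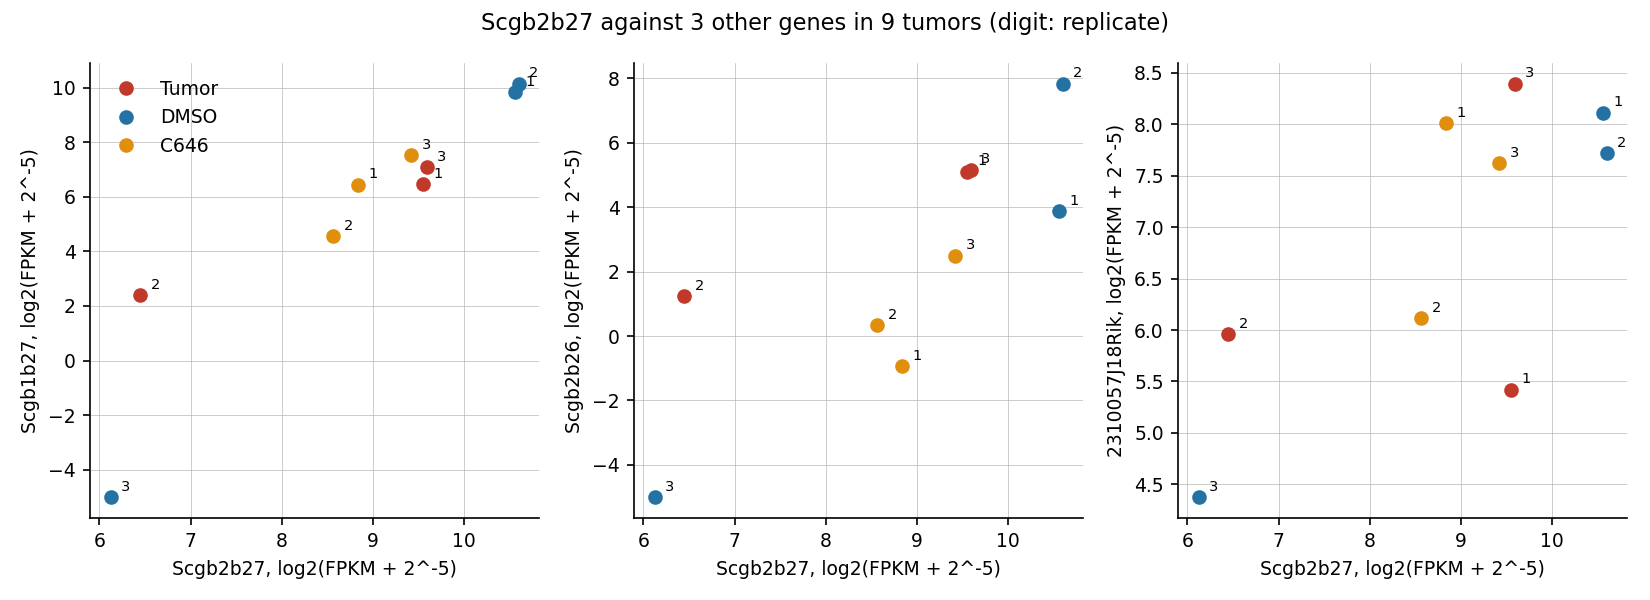
Scgb1b27, Scgb2b26 and 2310057J18Rik against Scgb2b27 in 9 tumors, both axes as log2(FPKM + 2^-5), with the replicate number beside each point and colors for Tumor, DMSO and C646. Scgb1b27 rises with Scgb2b27 over all 9 points (r = 0.93), and DMSO replicate 3 lies lowest in each panel.

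Some genes best known from the secretions of other glands were high in some of the same tumors, and others were not. Of 15 salivary gland markers, 11 were in all 12 files, and their summed FPKM was between 0.689 and 3.19 in Normal, 78.1 and 420 in Tumor, 40.6 and 2618 in DMSO and 114 and 156 in C646. Car6 made up most of the sum in 8 of the 9 tumors, and without it the other 10 summed to between 0.387 and 0.549 FPKM in Normal, 13.7 and 69.0 in Tumor, 8.85 and 621 in DMSO and 22.4 and 40.3 in C646. Amy1, an amylase gene on the same list, was in the Normal and Tumor files only and is not in these sums. It ran the other way, with 134, 149 and 170 FPKM in Normal and 5.75, 0.729 and 1.29 FPKM in Tumor. Prol1, a proline-rich protein of tears and saliva, read 116, 461 and 0 FPKM in DMSO replicates 1 to 3 and at most 13.0 FPKM elsewhere. Pip, a protein secreted by salivary, lacrimal and apocrine glands, read 103, 150 and 1.40 FPKM in the same tumors and at most 27.0 FPKM elsewhere. Car6, the secreted carbonic anhydrase of saliva, was also high outside DMSO, with 403, 64.4 and 238 FPKM in Tumor and 2354, 266 and 31.8 FPKM in DMSO. Bpifa2, Dcpp3, Smr2, Smr3a and Klk1b1, which salivary glands also express, stayed under 2 FPKM in all 12 samples. Among the remaining markers, Dcpp1 and Dcpp2 did not follow the secretoglobins. Dcpp1 read 32.7, 2.60 and 3.14 FPKM in DMSO replicates 1 to 3, and Dcpp2 read 5.65, 1.34 and 1.79 FPKM. Both were thus low in DMSO replicate 2, where the secretoglobins were highest. In C646 Dcpp1 read 28.2, 7.54 and 2.53 FPKM. Lpo read 2.39, 3.97 and 1.47 FPKM in DMSO replicates 1 to 3 and 0.95, 1.38 and 2.84 FPKM in C646. Like the secretoglobins, it was highest in replicate 2 of DMSO and in replicate 3 of C646. In Tumor it read 1.41, 4.55 and 2.96 FPKM, highest in replicate 2, where the secretoglobins were lowest in that group. Its correlation with them was not computed. The part of other gland tissue in the secretoglobin values was not tested.

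Some cartilage genes stood out in the tumor with the highest Scrg1. DMSO replicate 1, with 123 FPKM of Scrg1, held 277 FPKM of Col2a1, the main collagen of cartilage, against at most 5.55 FPKM in the other 11 samples. Sox9, a regulator of cartilage formation, read 190 FPKM there and at most 45.8 FPKM elsewhere. The summed FPKM of 10 cartilage markers was between 10.8 and 19.3 in Normal, 193 and 333 in Tumor, 193 and 1343 in DMSO and 307 and 483 in C646. Outside DMSO replicate 1, Col9a1 and Col9a2 made up most of this sum. They read 120, 131 and 94.4 FPKM and 170, 42.6 and 76.7 FPKM in Tumor replicates 1 to 3. Comp, on the same list, read 4.82 FPKM in DMSO replicate 1 and 13.7 FPKM in C646 replicate 1. Acan and Matn1, which define mature cartilage, stayed at or under 0.355 FPKM in every sample. In the other 8 tumors Scrg1 was between 8.89 and 48.5 FPKM with Col2a1 at or under 5.55 FPKM.

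**Figure D4:**
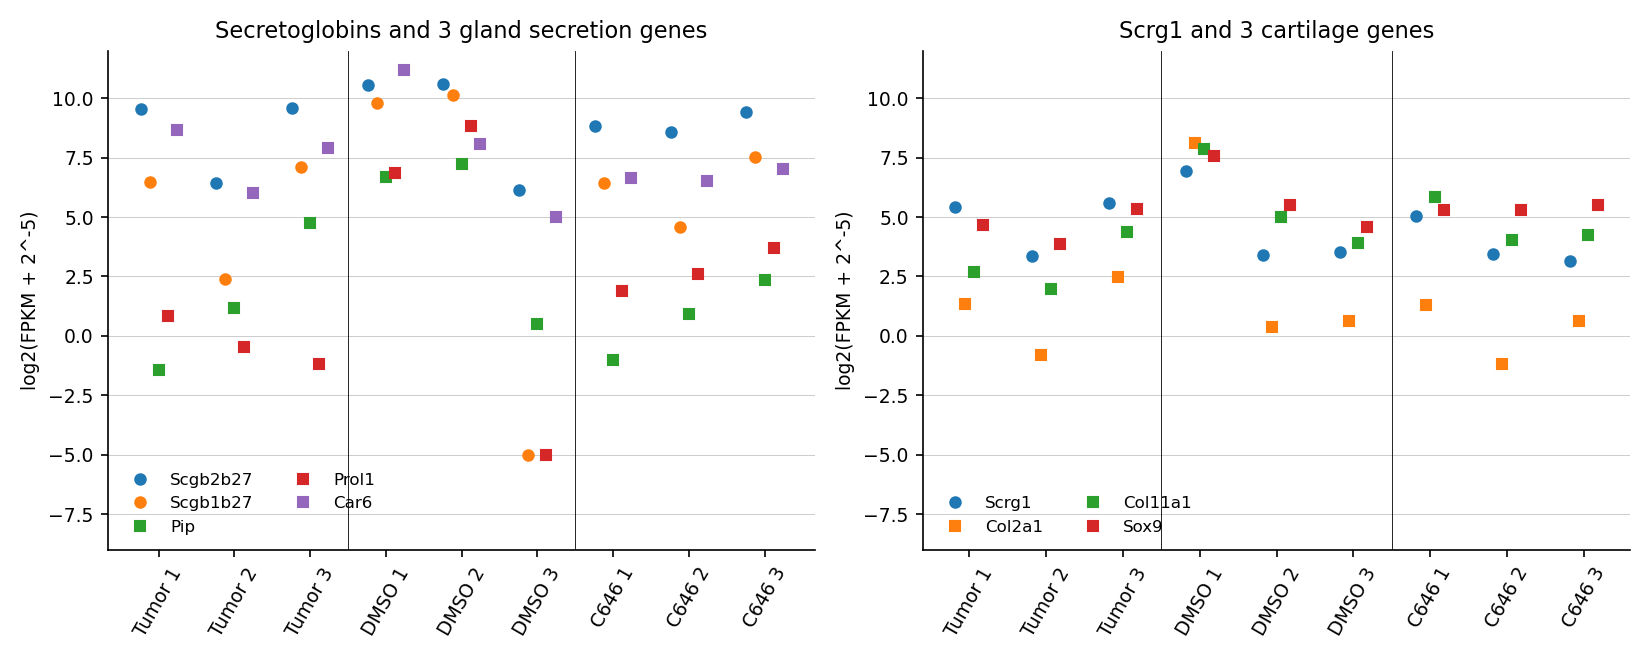
Left, Scgb2b27 and Scgb1b27 (circles) beside Pip, Prol1 and Car6 (squares), and right, Scrg1 (circles) beside Col2a1, Col11a1 and Sox9 (squares), as log2(FPKM + 2^-5) in each of 9 tumors. Prol1, Pip and Scgb1b27 are highest in DMSO replicates 1 and 2, and Col2a1 and Scrg1 in DMSO replicate 1. The other markers of both lists, some of which do not follow these genes, are not drawn.

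The names most like each gene were sought among 12008 names with a mean of at least 1 FPKM, by Pearson's r of deviations from the group means over the 9 tumors. For Scrg1 these were Chad (r = 0.99), a matrix protein of cartilage, Sdc4 (0.99) and Smim5 (0.98). Chad read 43.9 FPKM in DMSO replicate 1 and between 1.42 and 15.5 FPKM in the other tumors. For Mospd4 they were Dnaaf2 (0.99), Mospd2 (0.98) and Fam63b (0.98), and all 3 were highest in DMSO replicate 1, like Mospd4. Mospd2 read 36.9, 17.3 and 9.27 FPKM in the DMSO tumors and 21.9, 14.7 and 18.2 FPKM in the C646 tumors.

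Names like the secretoglobins varied far less in size. They were Sesn3 (0.99), Ctnnd1 (0.99) and Npr2 (0.99) for Scgb2b27, Kat6b (1.00), Kbtbd7 (0.99) and Serpinb9 (0.99) for Scgb1b27, and Zfp182 (0.99), Zbtb37 (0.99) and Trp53inp1 (0.98) for Scgb2b26. Sesn3 was between 9.09 and 19.0 FPKM in the 9 tumors, where Scgb2b27 was between 69.8 and 1550 FPKM. For 2310057J18Rik they were Acsl4 (0.99), Tsc1 (0.98) and LOC106740 (0.97), and for Ankrd22 Tia1 (0.98), Smarcad1 (0.94) and Rab11fip2 (0.94). With 9 points from 3 groups, high values of r are found for many of 12008 names, and these are given as a description.

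How common the pattern was can be read from the whole table. Of 23301 names, 7243 were at or under 0.1 FPKM in each Normal sample, and 28 of these (0.387%) were at 1 FPKM or more in each Tumor sample. The 28 include 5 of the 7 genes, while Scgb2b27 and Scrg1 lie outside with 0.938 and 0.37 FPKM in their highest Normal sample. The count moved with the limits, to 85 with a limit of 0.3 FPKM in Normal and to 6 with a minimum of 3 FPKM in Tumor. By mean Tumor level 2310057J18Rik (147 FPKM), Scgb1b27 (76.7 FPKM) and Scgb2b26 (24.1 FPKM) led the 28.

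Of the 28 names, 9 (32.1%) reached 1 FPKM in all 6 injected tumors, namely 3 of the 7 genes (2310057J18Rik, Ankrd22 and Mospd4) and 6 other names. These 6 were named after their values were seen and are 4930597G03Rik, Gm19303, Ripply1, Cyp26a1, Sowaha and BC016579. Ripply1 read between 2.86 and 22.3 FPKM in the injected tumors. Of the other 19, Sln, the muscle regulator sarcolipin, read 6.44, 41.2 and 5.64 FPKM in Tumor and was listed at 0 in 3 of the 6 injected tumors. Trim63, Cav3 and Myoz2, picked after their values were seen, had medians under 1 FPKM in the injected tumors.

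**Figure D5:**
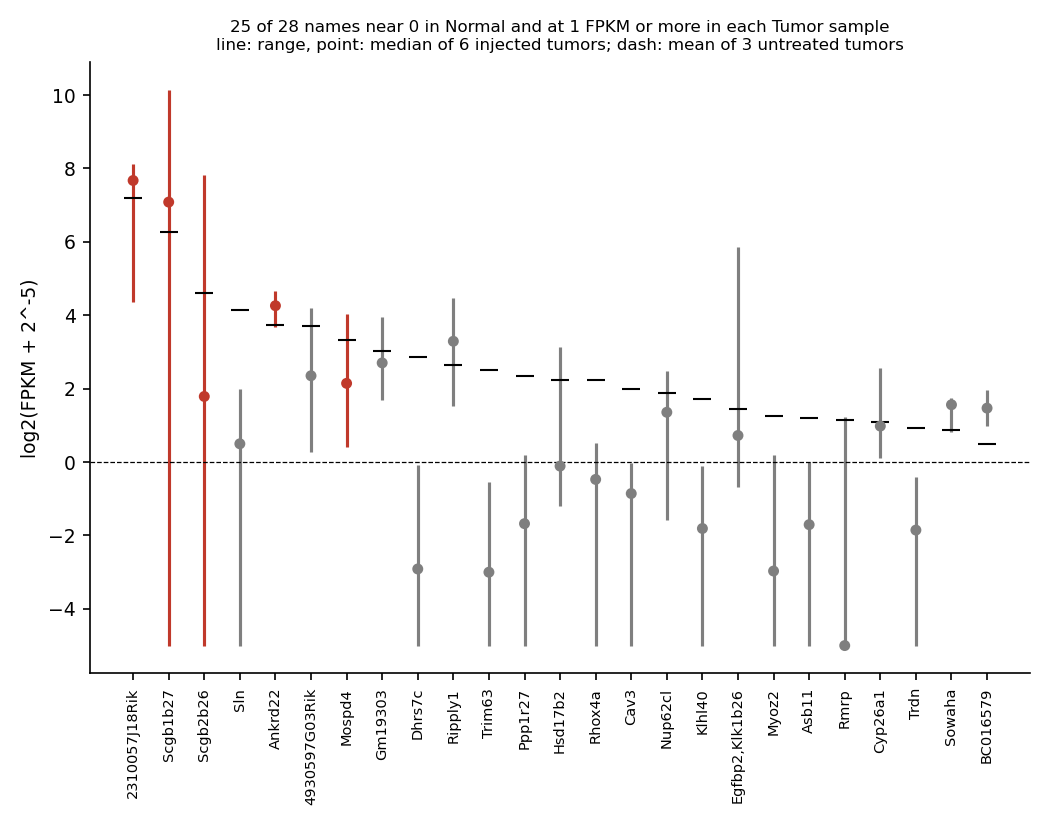
The 25 names with the highest mean Tumor level among the 28 at or under 0.1 FPKM in each Normal and at 1 FPKM or more in each Tumor sample, as log2(FPKM + 2^-5), ordered by that mean (dash), with the median (point) and range (line) of the 6 injected tumors and the 5 chosen genes in red. The dashed line marks 0 on this scale, close to 1 FPKM, and 9 names have their whole range at 1 FPKM or more.

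When no minimum was set in each Tumor sample, 8 of the 10 other names with the highest mean Tumor level were microRNA or snoRNA names, led by Mir7079 and Snord49a. All 8 were listed at 0 in all 6 injected tumors, and none of the 8 was above 0 in every Tumor sample. Snord49a read 0, 174 and 0 FPKM in Tumor replicates 1 to 3 and Mir7079 118, 0 and 76.4 FPKM. Their high means therefore do not show a level shared by the untreated tumors. The remaining 2 were Sln and 4930597G03Rik.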

How the data were processed

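Poly-A RNA of 12 samples was sequenced without strand information. Per the labels and the methods of the study, the authors removed adaptors, mapped the reads to mm10 with TopHat 2.1.1 and computed FPKM with Cufflinks 2.2.1. The deposited FPKM tables held 26220 rows (Normal, Tumor) or 24304 rows (DMSO, C646). Rows lacking a gene name were left out, and rows that shared a name were added up. Groups, replicates, ages and doses came from the labels.

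C646 and DMSO were compared with limma 3.58.1 in R 4.3.3 (lmFit, eBayes with a trend) on log2(FPKM + 2^-5), that is with a pseudocount of 0.03125. It shrinks changes between low values above 0. Where a listed 0 is involved, size and sign can depend on it. For Scgb1b27 the difference was 1.19 with this setting, 0.20 with a pseudocount of 0.25 and -0.45 with 1. A name was tested when 3 or more of the 6 samples held 1 FPKM or more, and p was adjusted by Benjamini-Hochberg with a threshold of 0.05. Tumor and Normal were fitted alike, for the background and the epithelial markers only. On data simulated for C646 against DMSO, limma found 35%, 80.5% and 95.5% of 200 names changed by 1, 2 and 3 on the log2 scale. These shares describe names in general. The chosen genes other than Ankrd22 had SDs within tumor groups between 1.15 and 5.28 on the log2 scale. The median SD over 12198 names was 0.28, so the shares do not apply to those genes. Correlations used exact permutation over pairings, two-sided. Positions came from GENCODE vM21 (GRCm38, the same build as mm10) and promoters from RefSeq.

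The 7 genes and the marker lists were chosen with earlier results of these data known. Besides the 7 genes, the text names secretoglobins that reach 1 FPKM, the 10 other names at or under 0.1 FPKM in Normal with the highest Tumor mean, the 3 names most like each gene, and markers. The depth estimate, the leave-one-out counts of injected tumors and the count without small RNA names, and the salivary sum without Car6, were added after seeing the data. One gene is not reported here. Sequencing depth per sample was estimated, not given.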

Additional observations from a re-analysis of the deposited data

How the results depend on the processing

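All 42 alternative values of the group means of the 7 genes (median-ratio scaling, highest row of a repeated name) moved by less than 1 SD. The differences between C646 and DMSO did not pass the adjusted threshold under any alternative run, but their signs were not stable. Leaving out 1 tumor moved Scgb2b27 between -1.64 and 0.60, Scgb1b27 between -3.80 and 3.77, Scgb2b26 between -5.22 and 1.20, 2310057J18Rik between -0.67 and 1.20, Scrg1 between -1.36 and 0.42 and Mospd4 between -0.39 and 1.43. Ankrd22 stayed below 0 in all 15 alternatives. With a pseudocount of 1 Scgb1b27 turned to -0.45. The number of names lower in C646 went from 0 to between 0 and 12 when 1 tumor was left out, with the 12 found without DMSO replicate 2. Names lower in Tumor went from 4128 to between 2570 and 4172, with 2570 without Normal replicate 3 and 2686 without Normal replicate 2. Quantile normalization gave 4348 higher and 3640 lower, beside 3758 and 4128, with a median shift of 0.12 over all names. Names near 0 in Normal and expressed in Tumor were 28, against 85 (limit of 0.3 FPKM) and 6 (minimum of 3 FPKM). The cause of these moves was not tested.

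Same-numbered C646 and DMSO tumors had correlations of deviations of 0.17, 0.07 and 0.11, and Tumor and Normal of -0.04, -0.10 and 0.01. The C646 tumor most correlated with DMSO replicates 1 and 3 was the same-numbered one, and with DMSO replicate 2 it was replicate 3. No Normal sample was most correlated with the Tumor sample of its number. These few values do not settle whether the numbers pair the samples, and the main fits used no pairing. With the replicate block limma called 0 names higher and 0 lower in C646, the differences of the 7 genes kept their values (-0.68 for Ankrd22) with adjusted p of 1.00, and 3439 names were higher and 3827 lower in Tumor. About 5000000 to 10000000 fragments per sample limit short transcripts to about 1 FPKM, and 3 samples per group limit the intervals.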
